A study of Oryza sativa with 8 samples.

Results

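A set of 28 rice loci gave a bright signal on every array of the variety Prasanna and a dim one on every array of the variety Varadan, out of 25725 loci that had a probe set of their own. A probe set entered when it was paired with 1 locus, its lowest log2 signal on the 4 Prasanna arrays was at least 7, and its highest on the 4 Varadan arrays was at most 5. This took 32 of 34858 such probe sets (0.0918%), 1 for each of 24 loci and 2 for each of 4. The same thresholds turned round took 55 probe sets and 52 loci that were bright in Varadan and dim in Prasanna. As the values of both varieties chose the loci, their difference between the varieties is described below and not tested.

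Shoots came from hydroponic seedlings, labelled as 14 days old, in 4 groups of 2 biotin-labelled Affymetrix arrays each: Prasanna without nitrogen, Prasanna with supplemented nitrogen, Varadan without nitrogen and Varadan with supplemented nitrogen. All seedlings were germinated for 7 days and grown for 10 days in Yoshida medium, a standard rice nutrient solution, with nitrogen, and were then transferred to media without or with nitrogen. How long they stayed there is not stated. These days add up to more than the labelled age, and the labels do not resolve this. Nothing says that the 2 arrays of a group came from separate cultures, so p-values measure only the spread between these arrays, which may be technical.

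Rice varieties differ in which genes they carry, because stretches of DNA that hold whole genes are deleted or inserted in some of them, and they also differ in the promoters and splice sites that set how much of a transcript is made. An expression array reads a transcript through short probes, here designed mainly on japonica rice sequences, and a variety whose sequence differs under the probes gives a low signal even where the transcript is present. A missing gene, a silent gene and a mismatched probe cannot be told apart in these data. Likewise, fewer cells that make a transcript and less transcript per cell cannot be told apart in whole shoots.

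The thresholds have to be read against the arrays themselves. Across the 8 arrays the median log2 signal ran from 5.59 to 6.26, between 33.0% and 41.6% of all probe sets were at or below 5, and between 36.6% and 39.1% were at or above 7. A signal at or below 5 therefore lay in the dim part of each array, but the deposited values carry no detection calls, so "absent in Varadan" was not shown and the loci are called bright in Prasanna and dim in Varadan. Leaf markers were bright in both varieties. For the Rubisco small subunits, Rubisco activase and a light-harvesting protein, 5 of the 6 loci listed had a probe set, with values of 13.41 to 16.74 on Prasanna arrays for the brightest probe set of each, and 13.60 to 17.33 on Varadan arrays. Of 5 root markers the silicon channel Lsi1 was bright, at 9.58 to 10.31 in Prasanna and 9.63 to 10.04 in Varadan, and the root protein RCc3 did not exceed 5.19 in Prasanna or 6.38 in Varadan. No probe set of either marker list had its Prasanna arrays all above or all below its Varadan arrays. The difference between the first and second arrays without nitrogen was partly shared by the varieties, with a correlation of 0.46 between replicate deviations across probe sets. This correlation cannot show which array of a pair stood apart. Without both first no-nitrogen arrays the rule took 38 loci, and since fewer arrays can only relax it, the 28 had to be among them.

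Over the 32 probe sets the 128 Prasanna values had a median of 9.82 and ran from 7.19 to 12.09, and the 128 Varadan values had a median of 1.94 and ran from -0.22 to 4.99. The Prasanna level was that of a typical bright probe set. Its median was 9.78, against 9.94 for the 17327 probe sets that were at or above 7 on all Prasanna arrays, and 15 of the 32 lay above that median. Their SD over the 4 Prasanna arrays had a median of 0.46, against 0.39 for those bright probe sets. In Varadan 65 of the 128 values were below 2 and 21 were at or above 4, spread over all 4 arrays. At such levels MAS5 values scatter widely, with a median SD of 1.22 over the 4 Varadan arrays, so a log2 difference of means has no fixed meaning and the gap between the lowest Prasanna and the highest Varadan array is given instead. The gap had a median of 5.05 and ran from 2.51 to 9.73, while its median over all single-locus probe sets was -1.40. The thresholds alone forced a positive gap on every member, so nothing is read from this contrast.

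**Figure D1:**
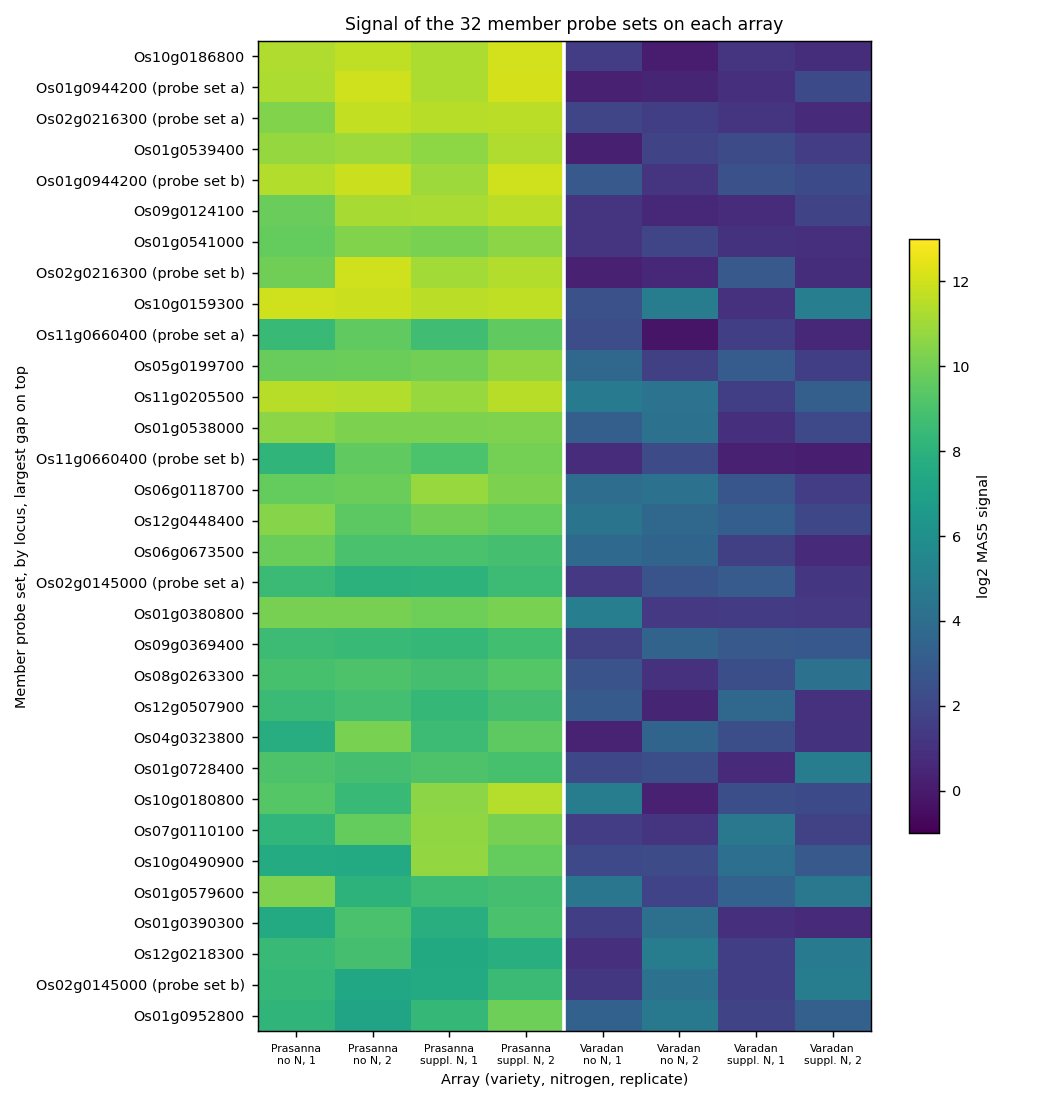
Log2 MAS5 signal (colour) of the 32 member probe sets (rows, named by locus and ordered by the gap between the lowest Prasanna and the highest Varadan array) on the 8 arrays (columns, with Prasanna left of the white line). Prasanna values run from 7.19 to 12.09 and Varadan values from -0.22 to 4.99, and the rows with the widest gap are bright on all Prasanna arrays alike.

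The widest gap, 9.73, belonged to Os10g0186800, a protein-coding locus in RefSeq with no gene symbol of its own. Its log2 signal was 11.35 and 11.65 in Prasanna without nitrogen and 11.28 and 12.04 with supplemented nitrogen, against 1.54 and 0.09 in Varadan without nitrogen and 1.16 and 0.83 with supplemented nitrogen. All Prasanna arrays were among the brighter values of the set and no Varadan array reached 2. Os01g0944200, also protein-coding, had a gap of 9.11, with 11.26 and 11.97 in Prasanna without nitrogen and 11.25 and 12.09 with supplemented nitrogen, against 0.27, 0.44, 0.92 and 2.14 on the Varadan arrays in the same order of groups. Its second member probe set stood at 11.41, 11.90, 10.97 and 11.96 in Prasanna and at 2.92, 1.08, 2.50 and 2.14 in Varadan. Both probe sets of this locus were near the top of the set in Prasanna, and neither exceeded 3 in Varadan.

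Os02g0216300, protein-coding, followed with a gap of 8.43. It had 10.35 and 11.73 in Prasanna without nitrogen and 11.49 and 11.54 with supplemented nitrogen, against 1.93, 1.62, 1.12 and 0.65 in Varadan. Its first no-nitrogen array was the lowest of the 4 in Prasanna. Os09g0124100, protein-coding, also had its lowest Prasanna value on that array, with 9.81 and 11.16 without nitrogen and 11.22 and 11.56 with it, against 1.11, 0.57, 0.78 and 1.89 in Varadan (gap 7.93). On both loci the Varadan arrays lay at the bottom of the scale under both nitrogen supplies. Os11g0660400 had a lower Prasanna level, with 8.49, 9.60, 8.68 and 9.57 against 2.32, -0.22, 1.58 and 0.61 in Varadan (gap 6.17). Its second member probe set had a gap of 5.92. A further probe set of this locus overlapped, with 1.95 to 6.21 in Prasanna and 1.93 to 5.25 in Varadan.

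Among the 10 loci with the widest gap, 2 are annotated as long non-coding RNAs, transcripts with no coding frame of note. Os10g0159300 was the brightest of these, with 11.97 and 11.87 in Prasanna without nitrogen and 11.57 and 11.65 with it. In Varadan it had 2.49 and 4.92 without nitrogen and 1.01 and 4.96 with it, so both second arrays lay just under the threshold of 5. Os05g0199700 had 9.77, 9.88, 10.05 and 10.67 in Prasanna, against 3.75, 1.68, 3.08 and 1.62 in Varadan (gap 6.02). Os11g0205500, protein-coding, closed the 10 with 11.47, 11.39, 10.83 and 11.51 in Prasanna, against 4.82, 4.31, 1.58 and 3.22 in Varadan (gap 6.01). The other 2 of the 10, Os01g0539400 and Os01g0541000, lie close together on chromosome 1 and are described with their neighbours below.

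The annotation names 1 of the 28 loci by function. Os09g0369400 is TPP7 (OsTPP7), a trehalose-6-phosphate phosphatase, which turns the sugar signal trehalose-6-phosphate into trehalose. In rice the gene is known for germination and early growth under water, and some varieties are known to lack it. Its member probe set had 8.62 and 8.45 in Prasanna without nitrogen and 8.31 and 8.77 with supplemented nitrogen, against 1.77 and 3.47 in Varadan without nitrogen and 2.89 and 2.85 with supplemented nitrogen. The Prasanna arrays were tightly grouped (8.54 ± 0.20, SD over 4 arrays) and the gap was 4.84. The array holds 2 further probe sets for this locus, and these did not repeat the pattern. One, whose suffix marks probes shared by transcripts of several genes, was bright in both varieties, with 10.38, 11.11, 10.84 and 10.99 in Prasanna against 10.30, 10.99, 10.65 and 10.61 in Varadan. The other had 6.48, 7.24, 5.43 and 6.37 in Prasanna against 6.63, 6.43, 7.98 and 6.77 in Varadan. The groups overlapped on both, so TPP7 is dim in Varadan by 1 of its 3 probe sets. Which of them reads the TPP7 transcript alone was not tested.

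Several probe sets for a locus give a second look at the same gene, though on the same arrays and in the same contrast that chose it. Of the 28 loci, 14 had more than 1 probe set (50%; over all loci the share was 25.4%), and 13 of these had 24 further probe sets that the rule did not take. On 12 of the 24, all Prasanna arrays lay above all Varadan arrays, which held for 3.16% of all single-locus probe sets. Since the loci were chosen on this contrast, nothing is read from that share. The other 12 overlapped between the varieties, and 0 had all Prasanna arrays below all Varadan arrays (3.45% of all single-locus probe sets). For 6 of the 14 loci every probe set on the array had all Prasanna arrays above all Varadan arrays: Os01g0539400, Os02g0145000, Os08g0263300, Os09g0124100, Os11g0205500 and Os12g0448400. This held for 0.659% of the 6529 loci with several probe sets. The rule alone fixed it for Os02g0145000, both of whose probe sets are members, and it fixed 1 probe set of each of the other 5.

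Os01g0944200 had the most probe sets, 2 in the set and 5 further ones. Its brightest, with probes shared by several genes, had 12.58, 13.33, 12.76 and 13.48 in Prasanna against 5.25, 5.99, 4.39 and 3.14 in Varadan. Another 3 had Prasanna means of 6.90 to 8.78 and Varadan means of 1.99 to 2.68, without overlap. The last was dim in both varieties, with means of 1.17 in Prasanna and 3.53 in Varadan. Thus 6 of the 7 probe sets of this locus separated the varieties, and the rule fixed this for its 2 member probe sets. Os02g0216300 was similar on 4 of its 5, again with 2 member probe sets among them. Its brightest further probe set had 13.31, 14.83, 14.94 and 14.88 in Prasanna, the highest level of any probe set of these loci, against 1.52, 2.23, 5.44 and 5.16 in Varadan. It missed the rule only through its supplemented Varadan arrays. Several probe sets of each of these loci share a design number in their names, so they are not independent.

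At 3 loci a further probe set was at or above 7 on all Varadan arrays. TPP7 is 1 of them. Os01g0539400 had 12.82, 13.15, 12.91 and 13.24 on a probe set with shared probes in Prasanna, against 10.89, 9.99, 9.38 and 9.05 in Varadan, so that Varadan was lower there without being dim. Os11g0205500 had 8.92, 8.97, 8.41 and 9.01 in Prasanna against 8.09, 8.03, 7.55 and 7.74 in Varadan, a gap of 0.31 where its member probe set had 6.01. For these loci the size of the difference depended on the probe set. Os08g0263300, a long non-coding RNA, had 8.61 to 9.09 in Prasanna on its further probe set, against 6.06 to 7.24 in Varadan, so Varadan was above 5 there as well. Os01g0579600 had 4 further probe sets, all overlapping between the varieties. The brightest of them had 9.61, 7.09, 7.48 and 7.93 in Prasanna against 7.93, 6.24, 7.28 and 8.05 in Varadan, while the member probe set had 10.27, 8.03, 8.64 and 8.85 against 4.50, 1.82, 3.41 and 4.62. The probe sets of Os01g0579600 carry different gene IDs. The ID of the 2 brightest further ones is a protein-coding gene with the synonym CBL9, a name used for calcineurin B-like calcium sensors, and that of the member probe set was not found in RefSeq.

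**Figure D2:**
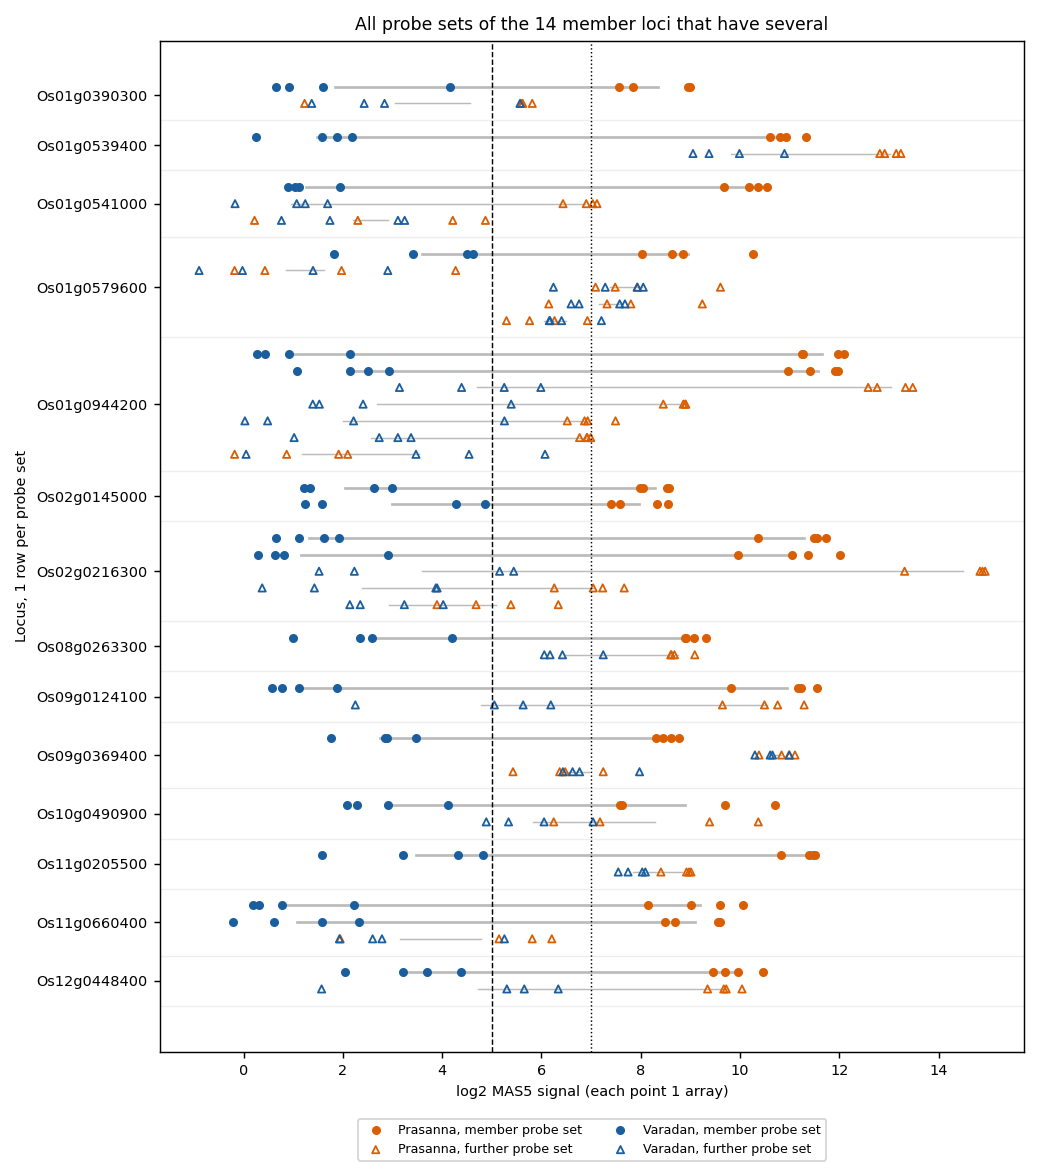
Log2 MAS5 signal (x axis, each point 1 array) of all probe sets of the 14 loci with several, grouped by locus with 1 row per probe set. Filled circles are member probe sets, open triangles further probe sets, orange Prasanna and blue Varadan, grey lines join the variety means, and the dashed and dotted lines are the thresholds 5 and 7. All rows of Os09g0124100 and Os12g0448400 keep the varieties apart, while the triangles of Os09g0369400 (TPP7) and Os01g0579600 overlap.

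The remaining loci had gaps of 2.51 to 5.99. Os06g0118700, protein-coding, had 9.67, 9.85, 10.84 and 10.26 in Prasanna against 3.99, 4.25, 2.77 and 1.53 in Varadan. Os12g0448400 had 10.47, 9.45, 9.96 and 9.71 in Prasanna against 4.39, 3.69, 3.21 and 2.04 in Varadan, and its further probe set had 9.35 to 10.04 against 1.57 to 6.34. Os06g0673500 and Os02g0145000 had gaps of 5.04 and 4.98, the second of these with 2 member probe sets and none besides. The steadiest member in Prasanna was the long non-coding RNA Os01g0728400, with 9.10, 8.86, 9.06 and 8.92 (SD 0.11), against 2.03, 2.37, 0.70 and 4.90 in Varadan. The least steady was Os10g0490900, with an SD of 1.56 in Prasanna. Its Prasanna arrays did not overlap by nitrogen, a difference that did not pass the test and is taken up below. Os12g0507900, a long non-coding RNA, and Os04g0323800, Os07g0110100 and Os10g0180800 had gaps of 3.57 to 4.57. Os01g0390300, Os12g0218300 and Os01g0952800 closed the list at 3.41, 2.57 and 2.51. The further probe set of Os01g0390300 overlapped, with 1.23 to 5.81 in Prasanna and 1.37 to 5.57 in Varadan.

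A few loci were members by a narrow margin. Os01g0380800 had 4.99 on the first no-nitrogen array of Varadan and 1.32 to 1.42 on the other 3, with 9.91 to 10.17 in Prasanna. Os10g0159300 reached 4.96 and Os12g0218300 reached 4.94 in Varadan. Just outside were Os05g0211100, Os02g0216500 and Os06g0315000, with a lowest Prasanna value of 7.5, 7.32 and 7.46 and a highest Varadan value of 5.04, 5.06 and 5.11. Within 0.25 of a threshold there were 8 probe sets on the inner side and 8 on the outer side. The values run on across the thresholds without a break.

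The annotation of the loci was then compared with that of the array, which the rule had not used. RefSeq listed 21 of the 28 gene IDs: 15 as protein-coding, 5 as long non-coding RNA and 1, Os10g0490900, as a pseudogene. Long non-coding RNAs thus made up 17.9% of the loci, against 1.97% of all 25725 loci and 1.01% of the 14699 loci that were at or above 7 on all Prasanna arrays. Protein-coding loci made up 53.6%, against 83.5% of all loci and 93.1% of those bright in Prasanna. The other 7 had a gene ID not found in RefSeq, which held for 12.5% of all loci and 5.1% of those bright in Prasanna. The 52 loci that were bright in Varadan and dim in Prasanna had shares near these, with 15.4% long non-coding, 57.7% protein-coding and 19.2% not found. These shares are a description of 28 loci and carry no test. By the suffix of the name, 68.8% of the member probe sets were of the plain kind, against 76.7% of all single-locus probe sets. A suffix for probes that may bind other sequences was carried by 15.6%, against 13.2%, one for alternative transcripts of 1 gene by 9.38% (3 probe sets), against 3.81%, and one for probes shared by several genes by 6.25%, against 6.32%.

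The loci were spread over 11 of the 12 chromosomes. Chromosome 1 held 9 of them (32.1%), against 14.7% of all loci and 5.77% (3 of 52) of those bright in Varadan and dim in Prasanna. Chromosome 10 held 4 (14.3%; 5.54% of all loci) and chromosome 12 held 3. Chromosome 3, which has 3246 loci on the array, held 0. Coordinates are not given, because no source names the build behind the probe annotation, and the loci are ordered by their locus number, which runs along each chromosome.

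Ordered this way, 3 of the 28 loci formed a run, with at most 5 other loci of the array between neighbours: Os01g0538000, Os01g0539400 and Os01g0541000. Os01g0538000, protein-coding, had 10.56, 10.23, 10.26 and 10.28 in Prasanna against 3.26, 4.24, 0.94 and 2.1 in Varadan. Os01g0539400 had 10.80, 10.93, 10.60 and 11.33 in Prasanna against 0.25, 1.88, 2.19 and 1.57 in Varadan (gap 8.42). Os01g0541000 had 9.67, 10.36, 10.17 and 10.55 in Prasanna against 1.12, 1.94, 1.04 and 0.90 in Varadan (gap 7.73). Of its further probe sets, one kept the varieties apart, with 6.43 to 7.12 in Prasanna and -0.17 to 1.69 in Varadan. The other was dim and overlapped, with 0.22 to 4.87 in Prasanna and 0.76 to 3.24 in Varadan. On all 3 member probe sets the Prasanna arrays with and without nitrogen overlapped.

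The loci between and beside these differed as well. Os01g0539900 had 9.87, 9.53, 9.37 and 9.91 in Prasanna against 1.14, 4.03, 5.42 and 1.13 in Varadan, and missed the rule through 1 array. Os01g0540800 had 8.76, 8.77, 8.95 and 8.94 in Prasanna against 4.61, 6.06, 3.15 and 6.42 in Varadan. Os01g0537250, next to the run, had 13.88, 12.39, 11.87 and 12.10 in Prasanna against 10.38, 8.71, 8.09 and 8.53 in Varadan. Of the 7 loci from Os01g0537250 to Os01g0541000, 6 thus had all Prasanna arrays above all Varadan arrays, and on Os01g0538200, a long non-coding RNA, the varieties overlapped. The rule fixed this order for the members of the run, and the ends of the stretch were set after the values were seen. Beyond Os01g0541000 the next bright locus, Os01g0541800, had 10.04 to 11.12 in Prasanna and 9.30 to 11.59 in Varadan.

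A second stretch lay on the lower-numbered side of Os01g0944200. Os01g0944100, beside it, had 11.47, 10.17, 13.39 and 12.16 in Prasanna against 0.20, 0.69, -0.30 and 5.87 in Varadan. Os01g0942850, 5 loci away, had 13.05, 13.02, 12.79 and 13.11 in Prasanna against -0.18, 4.51, 5.86 and 5.80 in Varadan. The long non-coding RNAs Os01g0943000 and Os01g0944000 lay between them with smaller gaps, 0.84 and 0.62. Os01g0943700, also between them, had low values that overlapped, with 1.53 to 4.32 in Prasanna and 4.19 to 5.75 in Varadan. On the other side the differences stopped: Os01g0944400 had 7.20 to 8.12 in Prasanna and 7.47 to 7.90 in Varadan. Whether probe sets of neighbouring loci bind each other's transcripts was not tested.

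**Figure D3:**
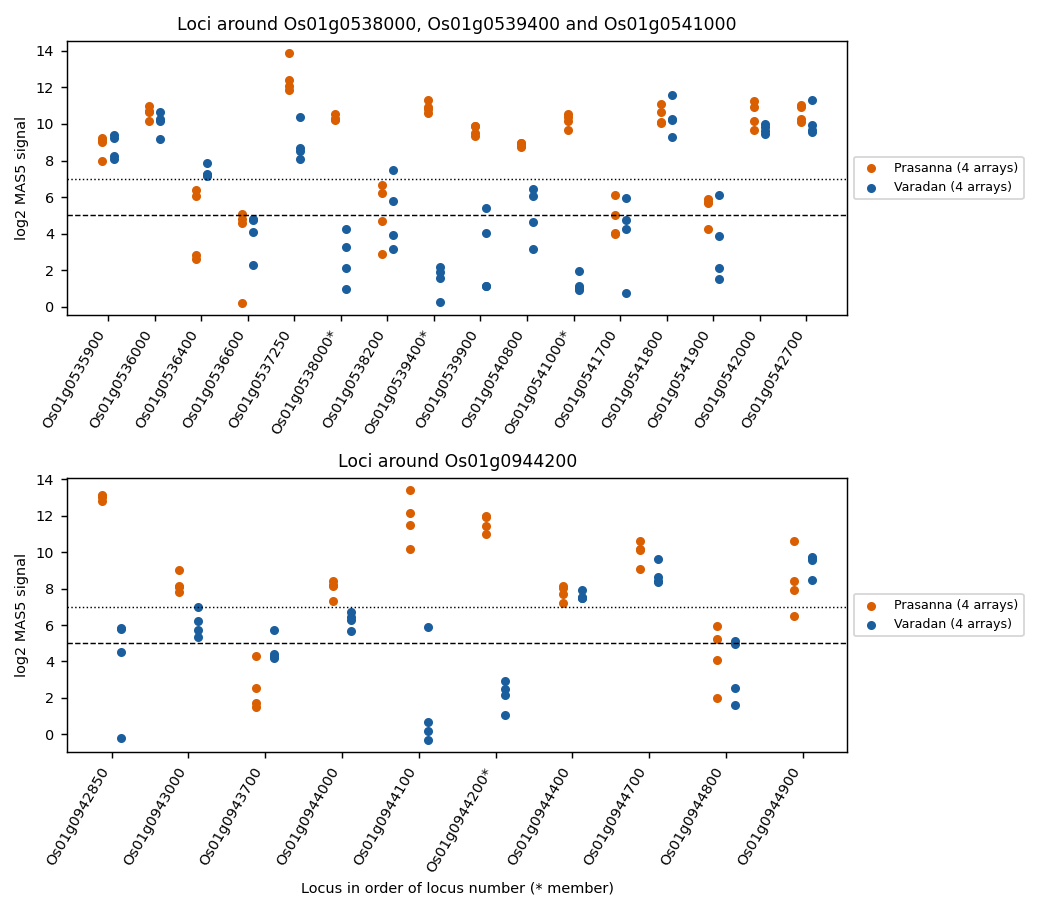
Log2 MAS5 signal (y axis, each point 1 array, orange Prasanna and blue Varadan) of the loci around 4 members on chromosome 1 in order of locus number (x axis, members starred), for the member probe set with the highest mean or, in other loci, the probe set with the highest mean. The dashed and dotted lines are the thresholds 5 and 7. Prasanna lies above Varadan at Os01g0537250 to Os01g0541000 except at Os01g0538200, and at Os01g0942850, Os01g0943000, Os01g0944000, Os01g0944100 and Os01g0944200.

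Over all members, the 5 nearest loci of the array on either side were taken as neighbours, 263 loci in all, of which 201 passed the filter on mean signal. On 22 of these 201 (10.9%) all Prasanna arrays lay above all Varadan arrays, against 3.39% of the 21480 loci outside the set that passed the filter. A mean difference of at least 2 on the log2 scale in addition held for 13 (6.47%), against 0.931%. The 13 lay beside 11 of the 28 loci. The opposite order, all Prasanna below all Varadan, held for 13 neighbours (6.47%), against 3.68%. Neighbours of these loci thus had more differences between the varieties in both directions, described here without a test. Leaving out the neighbours of the 4 members in the 2 stretches above, a choice made after seeing the data, gave 8.2% with Prasanna higher and 6.56% with Prasanna lower. The share with a mean difference of at least 2 was then 3.83% (7 of 183), so the 2 stretches held 6 of those 13 neighbours.

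Neighbours beyond the 2 stretches included loci of the same kind as the members. Os10g0490400, near Os10g0490900, had 9.52, 9.81, 9.13 and 9.40 in Prasanna against 2.77, 4.77, 5.99 and 6.56 in Varadan. Os10g0158700, near Os10g0159300, had 7.46, 9.24, 8.47 and 8.77 against 1.68, 2.45, 6.37 and 4.90. The long non-coding RNA Os02g0216500 lay beside Os02g0216300, with 7.82, 7.86, 7.32 and 7.67 in Prasanna against 5.06, 3.69, 4.72 and 0.66 in Varadan. Each of these missed the rule through Varadan arrays above 5. The opposite order was clearest at Os07g0110600, near Os07g0110100, with 1.01, 4.67, 5.03 and 5.61 in Prasanna against 9.46, 11.02, 11.02 and 10.63 in Varadan. Os07g0110100 itself had 8.20, 9.66, 10.66 and 10.12 in Prasanna against 1.52, 1.19, 4.63 and 1.78 in Varadan, so that within 5 loci each variety had a bright locus that was dim, or near it, in the other.

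For comparison, 12 loci known to vary among rice varieties were looked up, and 7 had a probe set of their own. The semi-dwarf locus SD1, a gibberellin oxidase gene, had 7.04, 8.95, 8.73 and 8.19 in Prasanna against 8.33, 8.51, 9.15 and 9.16 in Varadan. The submergence locus gene SUB1C averaged 10.57 ± 0.31 in Prasanna and 10.39 ± 0.71 in Varadan (SD over 4 arrays each), and the fragrance gene BADH2 had 9.98 to 10.85 in Prasanna and 10.14 to 10.86 in Varadan. These groups overlapped. Of the 12 probe sets of the 7 loci, 1 had all Prasanna arrays above all Varadan arrays, a probe set of Wx, the granule-bound starch synthase of the grain, with 8.56, 7.90, 8.21 and 7.09 against 6.33, 6.22, 5.30 and 6.62. None of the 7 loci was a member of the set.

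The study compared nitrogen supplies. The rule did not use the nitrogen difference, but it required all Prasanna arrays of both supplies to be at or above 7, so a locus that was dim under either supply could not enter. Shares over the 18489 tested probe sets that meet the same condition in Prasanna are therefore given beside those over all tested. In Varadan the loci were dim and no nitrogen difference is given. All 32 probe sets passed the filter on mean signal, to which their Prasanna level gave the larger part, so passing it is no separate result. The difference, no nitrogen minus supplemented, was small on most member probe sets. It had a median of -0.10 (-0.00 over all 34333 probe sets tested). Its size had a median of 0.21, against 0.32 for tested probe sets at or above 7 on all Prasanna arrays. The standard error (SE) of the member differences ran from 0.55 to 1.47, so a small one does not show that a locus stayed level. The difference was under 1 in size on 27 of 32. Over all 32 it was positive on 10 and negative on 22, where 4 loci count with 2 probe sets each. No share over other probe sets stands beside these counts, so nothing is read from them. By limma with Benjamini-Hochberg adjustment over all probe sets, 0 of 32 passed at 0.05, as did 0% of all tested. At an unadjusted p under 0.05 there was 1 of 32, against 6.63% of all tested, with 0 higher (3.37% of all tested) and 1 lower (3.26%). Over the tested probe sets at or above 7 on all Prasanna arrays the shares were 4.08% higher and 3.41% lower. These shares are not a like comparison. The rule held the Varadan arrays of members at dim levels, where their median SD was 1.22, against 0.46 in Prasanna. The fit pools this spread into the SE of the Prasanna difference, which makes calls among members less likely. Nothing is read from the count of 1 of 32. On simulated data of this design, random probe sets that passed the filter were raised, with the same spread in all groups. The test recovered 14 of 100 raised by 2 on the log2 scale and 41 of 100 raised by 4, so it missed most changes of these sizes there. The members have unequal spreads in the 2 varieties, so these rates need not hold for them.

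The member with the lowest p was the pseudogene Os10g0490900. Its log2 signal was 7.63 and 7.58 in Prasanna without nitrogen and 10.71 and 9.69 with supplemented nitrogen. The difference was -2.60 ± 0.68 (SE; limma adjusted p = 0.454), and the arrays did not overlap. Its further probe set, which was above 4.8 on all Varadan arrays, had 7.18 and 6.25 in Prasanna without nitrogen and 10.37 and 9.39 with supplemented nitrogen, a difference of -3.16 ± 0.74 (limma adjusted p = 0.399). Both probe sets of this locus were lower without nitrogen in Prasanna and neither passed. As their names place them in 1 probe design, they are not independent. The loci directly beside it had the same order in Prasanna without overlap. Os10g0490800 had 7.37 and 8.78 without nitrogen and 11.54 and 10.70 with it. Os10g0491000 had 6.77 and 9.10 without nitrogen and 12.66 and 11.82 with it. Further out, Os10g0490400 had the opposite order and Os10g0491400 overlapped. The name of the Os10g0490800 probe set shares a design number with the member. Whether the signal belongs to the pseudogene alone was not tested.

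The Prasanna arrays did not overlap by nitrogen on 9 of the 32 probe sets, against 35.6% of all tested and 36.0% of those at or above 7 on all Prasanna arrays. On 7 of these both no-nitrogen arrays lay below both supplemented arrays in Prasanna, against 17.7% of all tested and 15.7% of the bright ones, and on 2 they lay above, against 17.8% and 20.3%. Besides Os10g0490900, the lower ones were Os10g0180800, Os07g0110100, Os01g0952800, Os09g0124100, Os06g0118700 and Os05g0199700. Os10g0180800 had 9.32 and 8.49 without nitrogen and 10.54 and 11.46 with it, a difference of -2.09 ± 1.34 (limma adjusted p = 0.842). Os07g0110100 stood at -1.46 ± 1.0 (limma adjusted p = 0.844) and Os01g0952800 at -1.44 ± 0.89 (limma adjusted p = 0.839). The others ran from -0.90 to -0.53. The 2 that lay above were Os12g0218300 at 1.03 ± 1.47 (limma adjusted p = 0.922) and the long non-coding RNA Os10g0159300 at 0.31 ± 1.26 (limma adjusted p = 0.98). No adjusted p of these passed 0.05. The fit shares 1 estimate of the spread among all groups, Varadan included, and with the 4 Prasanna arrays alone Os10g0490900 had an SE of 0.46 and a limma adjusted p of 0.644.

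**Figure D4:**
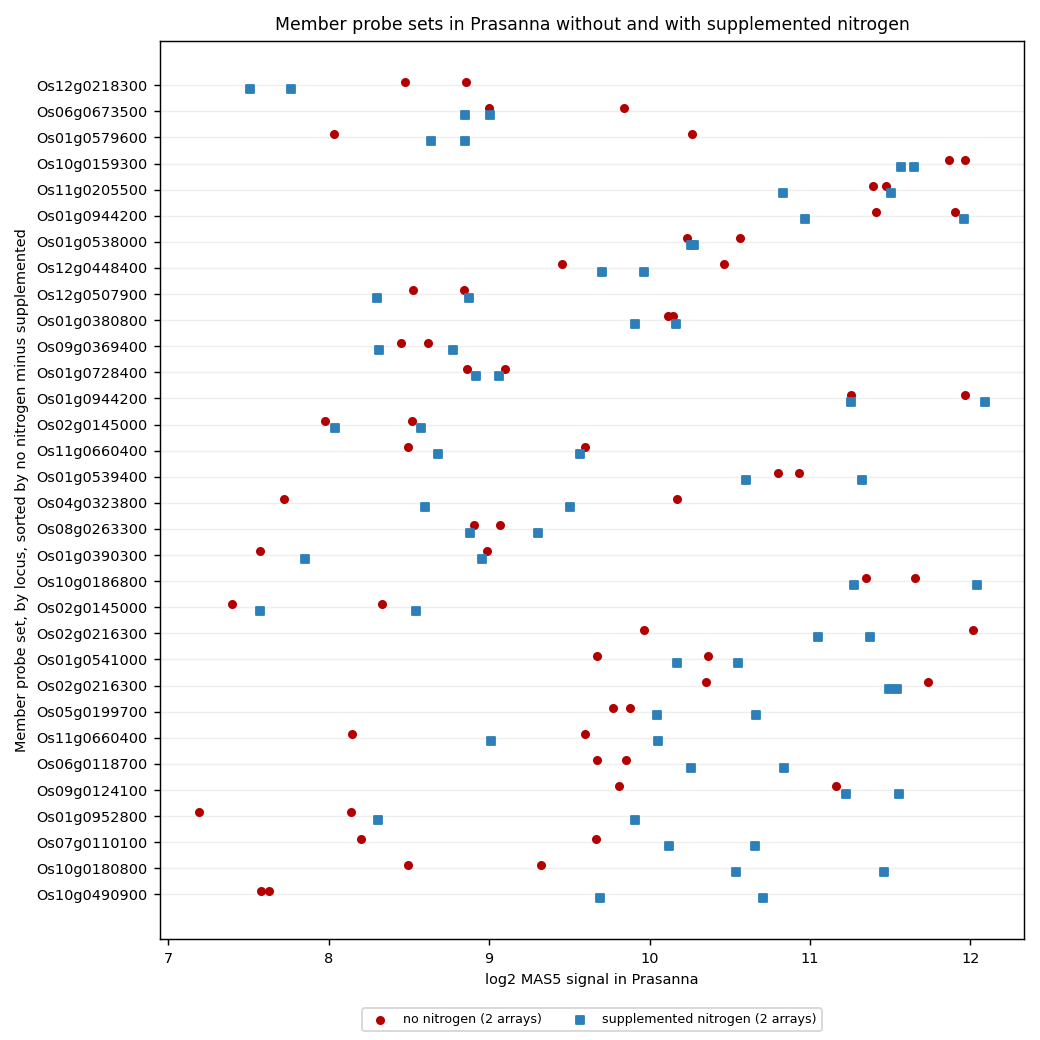
Log2 MAS5 signal in Prasanna (x axis, each point 1 array) of the 32 member probe sets (rows, named by locus and sorted by no nitrogen minus supplemented, highest on top), with circles for no nitrogen and squares for supplemented nitrogen. The groups overlap on most rows, and the widest separation is that of Os10g0490900 at the bottom, with 7.58 and 7.63 without nitrogen and 9.69 and 10.71 with it.

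TPP7, the named locus, had a nitrogen difference of -0.01 ± 0.75 in Prasanna (SE; limma adjusted p = 0.998). The members with the widest gap differed by -0.16 ± 0.65 (SE) for Os10g0186800 and -0.06 ± 0.63 for Os01g0944200. Replicates without nitrogen differed by a median of 0.62 over the members and those with supplemented nitrogen by 0.56, against 0.53 and 0.30 over all probe sets at or above 7 in Prasanna. A miss at this threshold does not show that a locus is unaffected by nitrogen.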

How the data were processed

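Shoot RNA of 2 rice varieties at 2 nitrogen supplies was measured on 8 arrays. Per the submitters' processing notes the authors summarised signals with MAS5; its version is not stated there. The deposited expression table holds log2 values, and the deposited series matrix holds the same signals as linear intensity, whose log2 differed by at most 3.0e-08. The trimmed mean signal was 500.0 on every array, which is how MAS5 scales to a target. Such scaling removes shifts shared by most transcripts, and mismatch subtraction scatters dim values. No detection calls or scanner files were used here. With 8 arrays, their number limits the precision.

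The 187 control probe sets were left out. Nitrogen in Prasanna was tested with limma 3.58.1 in R 4.3.3 on 34333 probe sets whose mean log2 reached the 40th percentile (4.48), with 1 mean per group over 8 arrays, 4 residual degrees of freedom, eBayes with trend and 2-sided p-values. The test was checked on simulated data. Neighbours used the probe set with the highest mean per locus. Gene IDs were matched to a RefSeq table (ASM3414082v1). Named loci were the 10 widest gaps, symbols, runs, several probe sets, threshold edges and the largest nitrogen differences without overlap. Other loci are named after their values were seen. The members and lists were chosen with earlier results of these data known. Protein features and description groups were planned and not run, because the tables used here hold neither proteins nor descriptions.

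Alternatives covered thresholds, normalization, filters, the variance prior, array weights, the replicate block and each array left out. Replicate deviations in the Prasanna groups correlated at 0.11 across probe sets.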

Additional observations from a re-analysis of the deposited data

How the results depend on the processing

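The number of loci, 28 as reported, was 47 at thresholds of 6 and 5, 13 at 7 and 4, and 68 at 7 and 6. It was 22 at 8 and 5, 28 after quantile normalization or median centring (25 of them shared in each case), and 29 to 42 with any 1 array left out, where the number can only rise. Leaving out an array can only widen a gap, so only the normalizations could have narrowed one, and the smallest gap under them was 2.37. Among member probe sets limma called 0 for nitrogen in Prasanna in every alternative run, and the difference at Os10g0490900 stayed between -3.10 and -2.09, with adjusted p from 0.279 to 1. Over all probe sets the calls, 0 higher and 0 lower as reported, were 52 higher and 244 lower without both first no-nitrogen arrays, where lone arrays are assumed to vary like the others, and 1 lower with a pseudocount of 16. They ranged from 0 to 5 lower with 1 array left out, and the 5 came without replicate 1 and without replicate 2 of Varadan without nitrogen. Member probe sets without overlap by nitrogen in Prasanna, 9 as reported, were 18 to 23 with 1 Prasanna array left out, since fewer arrays overlap less. With the replicate block, 0 members and 0 probe sets passed, and the numbers are shared labels only, with replicate deviations correlated at 0.11 between the Prasanna groups. Signals near background limit the Varadan values of the member probe sets.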

Other observations

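Beyond the 28 loci, 7 probe sets without a locus in the annotation and 1 with several loci also met both thresholds, and they were not described because no single gene can be named for them. On the 52 loci bright in Varadan and dim in Prasanna the median gap was 4.22 in their own direction, against 5.05 for the probe sets bright in Prasanna.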
